A study of Mus musculus with 2 samples.

Results

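Mir143, Mir145a and Mir145b are the mouse microRNA genes of the smooth muscle miR-143 and miR-145 families. They were taken by their GENCODE M21 gene names and make up 3 of the 2202 microRNA genes counted. The samples are gastrocnemius, a calf muscle rich in blood vessels, from male adults aged 8 to 10 months, with the strain given as 5xFAD/CAST. CAST mice are inbred from wild ancestors, and the 5xFAD line carries transgenes that cause amyloid plaques. It is not stated which mice, if any, carried them. The 2 libraries form 1 group with no treatment, are numbered as biological replicates 1 and 2 and come from separate tissue samples under 1 donor record. Since nothing states that these were separate animals, the spread between them may be technical in part, and no comparison of conditions was possible.

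Mir143 and Mir145a are processed from a shared primary transcript that is best known from vascular and visceral smooth muscle, where serum response factor and myocardin drive it. Their mature microRNAs are known to favour the contractile state of smooth muscle cells, among other ways through Klf4 and Klf5. In skeletal muscle the usual source of both is the wall of blood vessels, that is smooth muscle cells and pericytes. In bulk tissue, fewer cells of a type and less RNA per cell cannot be told apart.

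In mm10, Mir143 (ENSMUSG00000065445.3) lies on chromosome 18 from 61649196 to 61649258, and Mir145a (ENSMUSG00000065592.2) from 61647825 to 61647894. Both are on the minus strand, so Mir143 is the 5′ partner, and 1301 bases separate them. In GENCODE M21 neither lies within another gene: the lincRNA Carmn, a smooth muscle and cardiac transcript on the same strand, ends 366 bases upstream of Mir143, and the lincRNA Bvht on the other strand ends 352 bases from Mir145a. In RefSeq, on GRCm38.p6, the Carmn gene runs from 61645878 to 61665538 and spans both microRNAs. Mir145b (ENSMUSG00000098366.1) is not part of this cluster. It lies 7374 kb away on the same chromosome and strand, from 69022199 to 69022273, with no GENCODE gene within 50 kb.

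**Figure D1:**
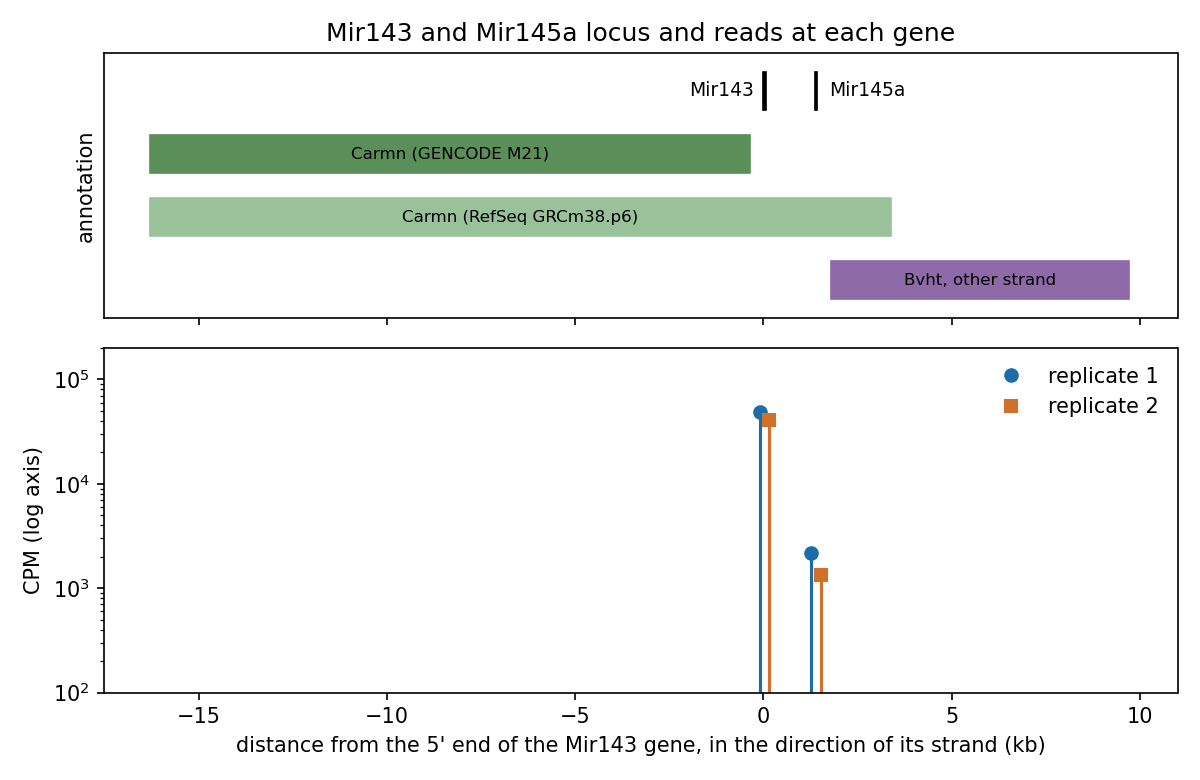
The upper panel maps Mir143, Mir145a and the neighbouring long non-coding genes by distance (kb) from the 5′ end of Mir143 in the direction of its strand, to scale; Bvht is on the other strand. The lower panel gives the level (CPM, log axis) at both microRNA genes, with 1 point per library drawn side by side. Mir143 stands at 48618 and 40817 CPM, and Mir145a, 1301 bases downstream, at 2181 and 1323 CPM.

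Replicate 1 held 1157420 reads in the column taken as the gene strand of microRNA genes and replicate 2 held 1193393. Levels are given as CPM, the reads of a gene scaled to a common total of reads in microRNA genes. A further 60.2% and 63.2% of all reads aligned to several places and were counted in no gene. None of the 46 windows of 18 bases in Mir143, nor of the 53 in Mir145a, occurred in a transcript of another GENCODE gene on either strand. Of the 58 windows in Mir145b, 2 occurred elsewhere, in transcripts of Arhgap32 and Fubp1. The longest run that Mir145a and Mir145b share is 17 bases, against 5 bases for Mir143 and Mir145a. The whole genome was not searched here.

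Mir143 was abundant in both libraries. It had 56272 reads in replicate 1 and 48711 in replicate 2, or 4.86% (95% exact binomial interval 4.82 to 4.90) and 4.08% (4.05 to 4.12) of the reads in microRNA genes. It was the 7th and the 6th gene by CPM in the 2 libraries, and per annotated base the 3rd and the 5th. The genes next to it in mean CPM were Mirlet7g and Mirlet7i above, Mir99a and Mirlet7b below. Mir143 held a mean of 44718 ± 5516 CPM (SD, n = 2), Mirlet7i 49576 ± 9355 CPM and Mir99a 44069 ± 8129 CPM. These 3 differed by less than their spread, and in replicate 1 Mir99a, at 49817 CPM, was above Mir143, at 48618 CPM.

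Mir145a was detected at a far lower level than its partner. It had 2524 reads in replicate 1 and 1579 in replicate 2, or 2181 CPM (exact binomial interval 2097 to 2267) and 1323 CPM (1259 to 1390). It was the 42nd and the 49th gene by CPM, and the 37th and the 47th per annotated base. Its neighbours in mean CPM were Mir320 at 2266 ± 1279 CPM and Mir140 at 2165 ± 994 CPM above, and Mir1839 at 1636 ± 194 CPM and Mir29c at 1615 ± 603 CPM below. Mir145a itself held 1752 ± 606 CPM (SD, n = 2), and it differed from each of these 4 by less than its SD.

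Mir145b had no read in replicate 1 and 1 read in replicate 2. The limit set by no read, taken as 3 reads, is 2.59 CPM in replicate 1, and the single read of replicate 2 is 0.838 CPM with an exact binomial interval of 0.0212 to 4.67. Mir145b was thus not detectable at this depth, where detection meant 2 CPM or more in both libraries. Mir145a was at least 841-fold higher than Mir145b in replicate 1, taking 3 reads for Mir145b. In replicate 2 the read ratio was 1579, with a counting interval of 283 to 62406.

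No read of any of the 3 genes was in the column taken as the opposite strand in either library. The count over both strands also equalled the count on the gene strand, which held in both libraries for 47 of the 57 genes at 1000 CPM or more on average. Copies of 1 molecule made by PCR cannot be recognised in these counts, so every interval reflects the error of counting alone.

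**Figure D2:**
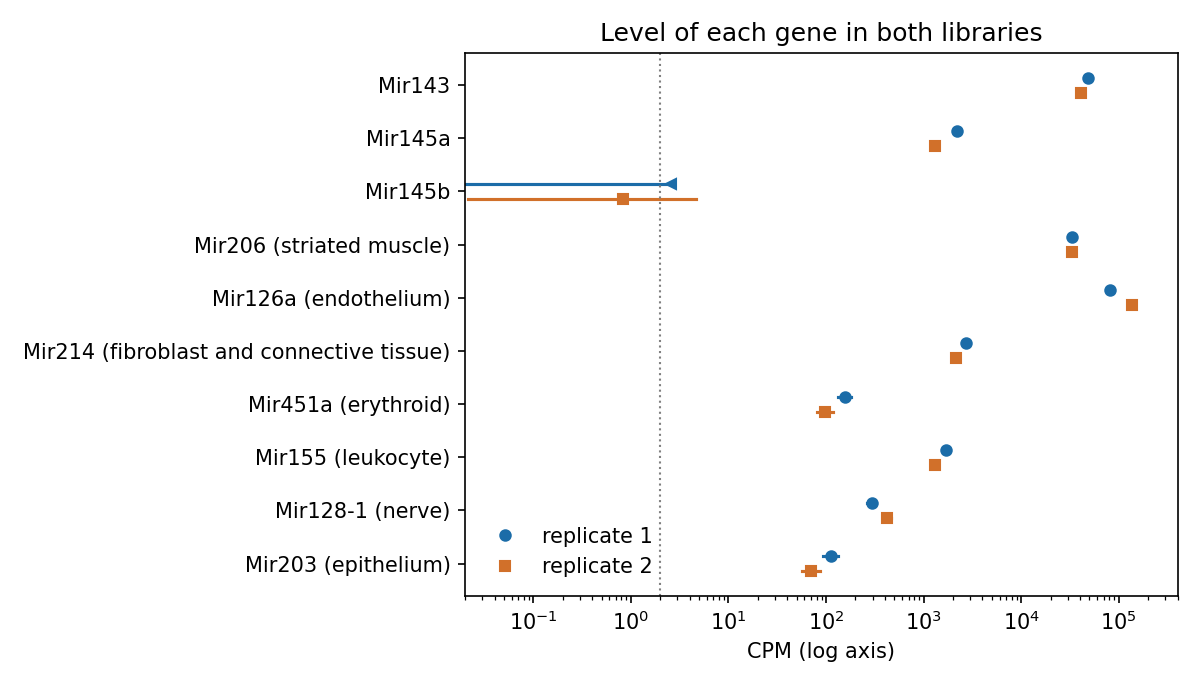
Level (CPM, log axis) of the 3 genes and of the most abundant marker microRNA of 7 other cell types, where circles are replicate 1 and squares replicate 2. Bars are exact binomial 95% intervals, many narrower than the symbol; the triangle is the limit of 2.59 CPM for a count of 0, its bar runs to 0, and the dotted line is the detection level of 2 CPM. Mir143 lies between Mir206 and Mir126a in both libraries. The upper limits of Mir145b differ in kind: 2.59 CPM is the limit for a count of 0 in replicate 1, and 4.67 CPM the exact upper bound in replicate 2.

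The 2 partners were counted in unequal amounts. Mir143 had 22.3 reads for each read of Mir145a in replicate 1 (exact binomial 95% interval 21.4 to 23.2) and 30.8 in replicate 2 (29.3 to 32.5). Per annotated base, with 63 bases for Mir143 and 70 for Mir145a, the ratios were 24.8 and 34.3. The mean read ratio was 26.6 ± 6.05 (SD, n = 2), so both libraries showed the same imbalance at a somewhat different size. Put as a share, Mir145a made up 4.29% of the reads of the pair in replicate 1 (4.13 to 4.46) and 3.14% in replicate 2 (2.99 to 3.30).

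The ratio was 1.38-fold higher in replicate 2 than in replicate 1 (95% interval 1.30 to 1.48), beyond counting error by Fisher's exact test on the 4 read counts (two-sided p = 1.16e-23). This test needs no scaling of the libraries. It compares the 2 libraries and says nothing of a condition. Both partners had fewer raw reads in replicate 2, and Mir145a lost the larger share of its reads. The common coefficient of variation between the libraries was 33.8% over all detected genes by edgeR.

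Neighbouring microRNA genes are often made from 1 primary transcript and yet counted unequally, and the pair was set beside all others of that kind. Taking detected genes that follow each other on 1 strand with starts at most 10 kb apart gave 84 pairs. The median read ratio of the more to the less abundant partner, as a mean over both libraries, was 5.28, and Mir143 to Mir145a ranked 17th of 84, also per annotated base. The nearest pairs by this ratio were Mir20a to Mir18 at 22.0 ± 3.22, Mir17 to Mir18 at 36.5 ± 16.9, both of the miR-17-92 cluster, and Mir27b to Mir24-1 at 37.2 ± 3.29 (SD, n = 2 each). The largest ratios belonged to Mir206 to Mir133b at 2671 ± 1780, Mir214 to Mir199a-2 at 626 ± 333 and Mir29a to Mir29b-1 at 189 ± 47.5. In these 3 pairs a partner has 20 consecutive bases in common with a further microRNA gene, so its level is uncertain, which is not the case for Mir143 and Mir145a. Among the 37 pairs in which neither partner has such bases in common, Mir143 to Mir145a ranked 5th.

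In 49 of the 84 pairs the 5′ partner was the more abundant, as in Mir143 and Mir145a. By Fisher's exact test with Benjamini-Hochberg adjustment over all pairs, the ratio differed between the libraries in 38 of 84 pairs, or 45.2%, and was higher in replicate 2 in 17, or 20.2%. Mir143 to Mir145a was among these (exact adjusted p = 1.95e-22), a share of pairs high enough that passing the test sets no pair apart. Its change of 0.47 on the log2 scale ranked 59th of 84 in size, below the median size of 0.83. Among the 23 pairs with at least 100 reads for the rarer partner in each library, whose counting error is smaller, the median size was 0.40 and 10 pairs changed more. The largest changes among all pairs were in Mir302c to Mir302b, Mir302a to Mir302c and Mir451a to Mir144, at -4.49, 3.82 and -3.47 on the log2 scale, each on counts under 200 reads.

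**Figure D3:**
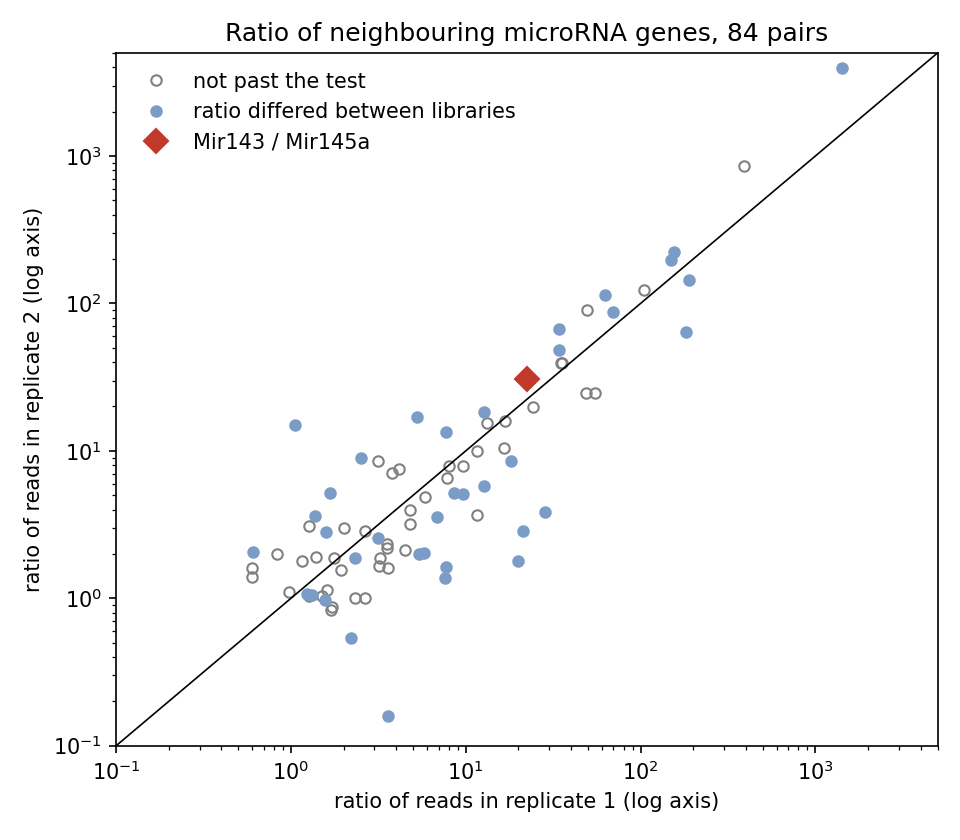
Read ratio of the more to the less abundant gene of 84 neighbouring microRNA pairs with replicate 1 on the horizontal and replicate 2 on the vertical log axis, 1 point per pair and the line of equal ratios. Filled points mark the pairs that differed between the libraries by Fisher's exact test, and the red diamond is Mir143 to Mir145a, at 22.3 and 30.8, just above the line.

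Summed over its genes, the Mir143 and Mir145a cluster held 50799 CPM in replicate 1 and 42140 CPM in replicate 2, or 5.08% and 4.21% of the reads. It had in each library the highest sum of the 68 clusters with a read in either, as CPM and as CPM per annotated base, where a cluster is a chain of genes on 1 strand with neighbouring starts at most 10 kb apart. The next was Mir99a with Mirlet7c-1, and the means of 46470 ± 6123 and 44333 ± 8228 CPM (SD, n = 2) differed by less than their spread. Many clusters, that one included, hold genes with near-identical copies elsewhere, whose reads were counted in no gene. Mir143 supplied 96.2% of the reads of its cluster.

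Scaled by TMM, the standard trimmed-mean scaling of edgeR, Mir143 was 1.04-fold higher in replicate 2 (95% interval 1.03 to 1.05) and Mir145a 1.33-fold higher in replicate 1 (1.25 to 1.42). Both passed the exact binomial test for a difference between the libraries (adjusted p = 6.9e-09 and 1.48e-18). So did 37.4% of the 321 detected genes, with 18.7% in each direction. Within 4-fold of the mean CPM of Mir143, 19 of 19 detected genes passed, and for Mir145a 35 of 53, or 66.0%. Passing thus sets neither gene apart from genes of like level. For Mir143 the difference had no settled direction: with total counts only, its log2 ratio of replicate 2 to replicate 1 was -0.25 in place of 0.05, while the median over all genes moved by -0.29. Mir145a was lower in replicate 2 under each of the 9 other settings, from -0.37 without a filter to -0.79 on the log2 scale with all reads as the total. With the exact test of edgeR and its dispersion set to 0.01, neither passed (adjusted p = 0.97 for Mir143 and 0.19 for Mir145a). That setting allows for some spread beyond counting error, but for less than the common coefficient of variation of 33.8%.

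Among detected genes within 4-fold of its mean CPM, 18 of 19 had a larger log2 difference between the libraries than Mir143, in either direction. For Mir145a 16 of 53 did. The genes of 100 CPM or more with the log2 ratio nearest that of Mir143 were Mir1839 at 0.06, Mir125b-2 at 0.07 and Mir185 at 0.09. Nearest to Mir145a, at -0.41, were Mir342 at -0.41, Mir541 at -0.43 and Mir150 at -0.39. Likeness was the absolute difference of log2 ratios among 128 genes. With 2 libraries it rests on a single difference per gene.

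Markers of other cell types were then set against both genes by read ratios within a library, which need no scaling. The most abundant marker of each of 7 other cell types was used, giving 14 ratios, with Fisher's exact test between libraries adjusted over all 14. Of these, 10 differed, where 37.4% of detected genes and 45.2% of neighbouring pairs also differed between the libraries. The ratios have genes in common, so they are not separate results. Mir206, the microRNA specific to skeletal muscle and so a check of the labelled tissue, had 38135 and 39300 reads.

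Mir143 had 1.48 reads per read of Mir206 in replicate 1 and 1.24 in replicate 2, or 1.71 and 1.44 per annotated base. The ratio was 1.19-fold higher in replicate 1 (95% interval 1.17 to 1.21, exact adjusted p = 7.5e-75). Mir145a had 0.0662 and 0.0402 reads per read of Mir206, a change of 1.65-fold (1.54 to 1.76). Relative to Mir206, both were thus higher in replicate 1. The other striated muscle markers did not all follow Mir206, which had more reads in replicate 2: Mir499, with 441 and 555 reads, and Mir208b, with 120 and 170, did so too, whereas Mir486 had 5963 and 4423 and Mir133b 27 and 10.

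The largest change was against Mir126a, the microRNA of endothelial cells, which line the vessels that smooth muscle surrounds. Mir143 had 0.602 reads per read of Mir126a in replicate 1 and 0.296 in replicate 2, a 2.03-fold change (2.00 to 2.06). Mir145a went from 0.0270 to 0.00961, a 2.81-fold change (2.64 to 2.995). Mir126a itself had 93483 reads in replicate 1 and 164298 in replicate 2 and was 2.11-fold higher in replicate 2 with TMM. It has a microRNA gene on its opposite strand, and its level rests on the count of 1 strand. Whether the libraries differ in their make-up of vessel cells was not tested.

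Against Mir214, a microRNA of fibroblasts and other mesenchymal cells, Mir143 held 18.00 reads in replicate 1 and 18.9 in replicate 2, and the change of 1.05-fold (0.993 to 1.11) did not pass (exact adjusted p = 0.10). Mir145a held 0.807 and 0.611 reads per read of Mir214, 1.32-fold higher in replicate 1 (1.22 to 1.43). Against Mir155, a leukocyte microRNA, Mir143 was 1.09-fold higher in replicate 2 (1.02 to 1.17) and Mir145a 1.27-fold higher in replicate 1 (1.15 to 1.39). Mir143 and Mir145a thus changed in opposite directions against Mir155. Mir155 does not speak for the whole leukocyte list: Mir150 had 1560 and 994 reads, Mir223 88 and 56, and Mir142 70 and 81. Against Mir128-1, a neural microRNA with a near-identical copy whose level is uncertain, both were higher in replicate 1, by 1.70-fold (1.48 to 1.95) and 2.35-fold (2.01 to 2.74).

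The erythroid Mir451a, with 180 and 117 reads, and the epithelial Mir203, with 130 and 84, were too sparse for small changes to show. Mir451a also has 20 consecutive bases in common with a further microRNA gene, so its level is uncertain. The Mir143 ratio to Mir451a was 1.33-fold higher in replicate 2 (1.05 to 1.70, exact adjusted p = 0.024) and that to Mir203 was 1.34-fold higher (1.01 to 1.78), which missed the threshold at an exact adjusted p of 0.0502. For Mir145a the changes were 0.962-fold against Mir451a (0.752 to 1.24) and 0.968-fold against Mir203 (0.725 to 1.30), and neither passed. These single markers do not speak for their lists: the erythroid Mir144 had 9 reads in replicate 1 and 65 in replicate 2, and the epithelial Mir200c, Mir200b and Mir429 had 3 and 16, 1 and 7, and 2 and 6.

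**Figure D4:**
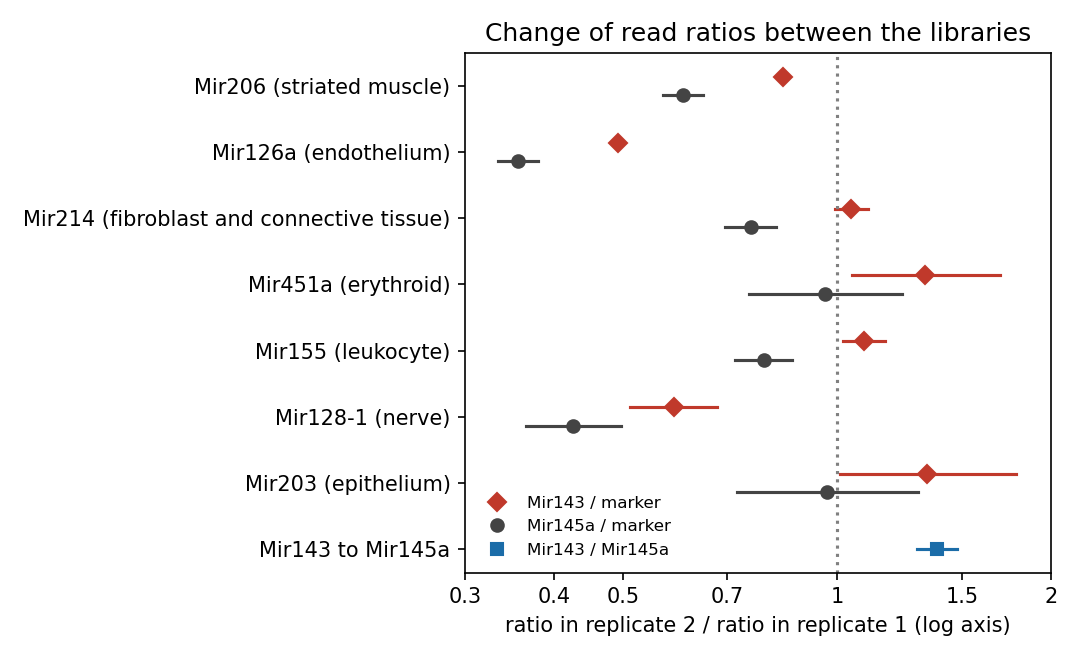
Read ratio in replicate 2 over that in replicate 1 (log axis) for Mir143 and Mir145a against the leading marker of 7 other cell types, and for Mir143 to Mir145a. Bars are exact 95% intervals for counting error and the dotted line is no change. Mir145a lies to the left of Mir143 against every marker by the same factor of 1.38, the Mir143 to Mir145a change, because the marker cancels. Both lie farthest to the left against Mir126a.

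Over the whole marker lists, the smooth muscle pair held 5.08% and 4.21% of the reads in replicates 1 and 2, the endothelium list 8.08% and 13.8%, and the striated muscle list 3.86% and 3.73%. The leukocyte list held 0.318% and 0.225%, the fibroblast and connective tissue list 0.272% and 0.218%, the nerve list 0.0336% and 0.0466%, the erythroid list 0.0163% and 0.0153%, and the epithelium list 0.0118% and 0.00955%. Reads that aligned to several places are in none of these shares. The striated muscle list leaves out Mir1a and Mir133a, and the fibroblast list holds the Mir199 genes. All of these have 20 consecutive bases in common with a further microRNA gene, so the order of the lists by share is uncertain. In the nerve list 5 of 8 genes, Mir9-2, Mir9-3 and all 3 Mir124a genes, had no read in either library, and no other list had a gene at 0 in both. Those 5 genes also have such bases in common with a further microRNA gene, so their counts of 0 do not show absence. As shares of the reads, the smooth muscle pair was thus lower and the endothelium list higher in replicate 2. The endothelium list rests on Mir126a alone, since Mir126b had 0 and 1 reads. With TMM Mir126a was 2.11-fold and Mir143 1.04-fold higher in replicate 2, and for Mir143 that direction was not settled.

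Smooth muscle cells also respond to microRNAs other than this pair, and 18 such genes, known for proliferation or phenotype in vessel walls or muscle, were listed. Of these, 16 were detected. In the exact binomial test over all genes, 5 of the 16 were higher in replicate 2, 6 were lower and 5 did not pass. Among all detected genes 37.4% passed, but passing depends on the number of reads and the list was not matched in level. Near the level of Mir145a, for example, 66.0% of genes passed, so no excess in the list can be read from these shares. The median log2 ratio of the list was -0.17, beside -0.01 for all genes tested. With total counts only in place of TMM, 3 of the 16 were higher in replicate 2 and 7 lower. The median was then -0.46, beside -0.30 for all genes tested. The list includes 2 pairs of neighbouring genes that share a seed, bases 2 to 8 of the mature microRNA, by which targets are recognised, and the genes of each pair differed between the libraries in the same direction. Their mature sequences, with those of the muscle and endothelial comparators, are shown from RefSeq (GRCm38.p6), 5′ to 3′, with the seed in capitals. The counts do not tell the arms of a hairpin apart.
mmu-miR-221-3p: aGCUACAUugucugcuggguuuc
mmu-miR-222-3p: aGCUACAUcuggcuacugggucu
mmu-miR-195a-5p: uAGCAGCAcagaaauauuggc
mmu-miR-497a-5p: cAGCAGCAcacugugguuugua
mmu-miR-206-3p: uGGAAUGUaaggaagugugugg
mmu-miR-126a-3p: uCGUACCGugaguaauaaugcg

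Mir221 and Mir222, known to promote smooth muscle proliferation and to share the seed shown first, had 1042 and 79 reads in replicate 1 and 371 and 24 in replicate 2. They were 2.34-fold (95% interval 2.08 to 2.64) and 2.74-fold (1.72 to 4.53) higher in replicate 1. Mir21a, also linked to vessel wall growth, had 20516 and 8964 reads and was 1.91-fold higher in replicate 1. Mir204, Mir133a-1 and Mir26a-1 were lower in replicate 2 as well, on 251 and 142, 24 and 6, and 289 and 11 reads.

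Mir195a and Mir497, which share the second seed, went the other way. Mir195a had 2493 reads in replicate 1 and 14162 in replicate 2, 6.81-fold higher in replicate 2 (6.53 to 7.11), and Mir497 had 477 and 833, 2.09-fold higher (1.87 to 2.35), so that the ratio of Mir195a to Mir497 also differed between the libraries. Mir10a, Mir24-2 and Mir146 were 1.22-fold, 2.31-fold and 1.35-fold higher in replicate 2 with TMM. For Mir10a that direction rests on the scaling, since its CPM was 2431 in replicate 1 and 2391.5 in replicate 2. The genes that did not pass were Mir24-1, Mir26a-2, Mir31, Mir1a-1 and Mir1a-2, with log2 ratios from -0.34 for Mir1a-1 to 0.36 for Mir24-1. Those not detected were Mir133a-2, with 5 and 0 reads, and Mir146b, with 6 and 0. Mir26a, Mir24, Mir1a, Mir133a, Mir146, Mir146b and Mir497 each have 20 consecutive bases in common with a further microRNA gene, so their levels are uncertain.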

How the data were processed

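MicroRNA-seq reads of RNA under 30 bases from 2 gastrocnemius libraries were used. The authors deposited raw read counts per gene on mm10 with GENCODE M21, per the labels and the deposited text descriptions; no header names the columns, and the aligner is not given in the sources used here. Column 3 counts were used and taken as the strand of the gene, from the layout of STAR gene counts and the larger total of that column in both libraries, which no header states. The 4 lines of totals that name no gene were left out, and held 81.1% and 82.0% of all reads.

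CPM, TMM factors over detected genes (1.11 and 0.899), exact binomial and Fisher's exact tests with Benjamini-Hochberg adjustment at 0.05, and Clopper-Pearson intervals were computed with edgeR 4.0.16, DESeq2 1.42.0 (size factors, an alternative), R 4.3.3, Python 3.11.15 and scipy 1.17.1. To each CPM 1 was added before taking log2 ratios. Quasi-likelihood tests need groups, and there is 1. Steps were tested on simulated data that held counting error alone, without the further spread seen between these libraries.

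The genes, lists and tests were chosen with earlier results of these data known. Named were the 3 genes, list members, nearest genes in level and log2 ratio, and pairs nearest or most extreme. Of the list names, 1 (Mir497a, as Mir497) was matched through a RefSeq synonym.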

Additional observations from a re-analysis of the deposited data

How the results depend on the processing

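The ratio of Mir143 to Mir145a did not move with both strands counted or opposite-strand reads subtracted, and lay from 22.3 to 30.8 when each replicate was left out. The level of Mir143 lay from 40817 to 48618 CPM and that of Mir145a from 1323 to 2181 CPM without each replicate. With the column of both strands, whose total is smaller, they were 63570 and 2481 CPM, with all reads as the denominator 8269.5 and 325 CPM, and without the most abundant gene Mir143 was at 53916 CPM. The log2 ratio of Mir143 between the libraries turned to -0.25 with total counts only and to -0.32 with all reads, and did not pass at 0.017 without genes sharing a run of bases (exact binomial adjusted p = 0.13) or, at 0.054, with the edgeR exact test (adjusted p = 0.97). Over its alternatives the adjusted p of Mir143 thus reached 0.97. For Mir145a, at -0.41, only that edgeR test did not pass (adjusted p = 0.19). That test called 53 of 321 genes, against 120. With total counts only, 35 of the 149 called genes were higher and 114 lower in replicate 2, and with all reads 33 and 125. Pairs that differed were 20 of 24 with both partners at 100 CPM or more and 11 of 37 without shared runs, where fewer were tested. Of the smooth muscle phenotype genes 6 of 7 without a shared run passed, where fewer were tested. Among all genes without a shared run 88 of 232 passed, a set not matched to the list in level. The Mir143 to Mir203 ratio passed with the column of both strands (exact adjusted p = 0.037). With that column 10 ratios to markers were taken, without those to Mir126a and Mir451a, and 8 differed. With the same column 110 of 328 genes and 26 of 77 neighbouring pairs differed. No paired analysis was possible because there is 1 group. No other library scaling changes a ratio within a library. Depth limits Mir145b, at 0 and 1 read.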
